A study of Mus musculus with 20 samples.

Results

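The genes described here encode the core of the PI3K, Akt and mTOR pathway. They are the rows of the deposited counts table that carry the names Pik3ca, Pik3r1, Akt1, Akt2, Mtor, Rptor, Rictor, Tsc2 and Deptor. All 9 were found among its 24885 genes, and all 9 passed the filter on low counts that left 18918 genes for testing. RNA was sequenced from the plantaris tendon of mice, in 20 libraries that form 5 groups of 4. KO day 7 and KO day 14 mice were ScxCreERT2+/+ IGF1Rflox/flox, had tamoxifen and a growth stimulus for 7 or 14 days. WT day 7 and WT day 14 mice were ScxCreERT2-/- IGF1Rflox/flox and had the same tamoxifen and stimulus. WT day 0 mice had that same ScxCreERT2-/- IGF1Rflox/flox genotype but neither tamoxifen nor stimulus. Every group thus carried the flox alleles, and a KO group without the stimulus was not analysed here. The recombinase is driven by Scx, a gene of tenocytes, while RNA came from whole tendon, so other cells in a sample keep the receptor gene. The labels state no age, sex or strain background.

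Receptors such as the IGF1 receptor activate PI3K, a lipid kinase made of a catalytic and a regulatory subunit, and the lipid it makes brings the kinase Akt to the membrane. Akt phosphorylates TSC2 and so releases mTOR complex 1, which contains raptor and drives protein synthesis and cell growth. A second complex of mTOR, with rictor in place of raptor, phosphorylates Akt itself. In muscle and tendon the pathway is known for coupling growth factors and mechanical load to protein synthesis. The data are messenger RNA levels and hold no measure of phosphorylation.

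Library depth ranged from 32254411 to 63522834 counts. The members had between 835 and 20609 counts in a library. Igf1r, the floxed gene, was no lower in the KO libraries, with 49.0 to 55.0 CPM in KO and 46.0 to 50.8 CPM in WT at day 7, and 49.8 to 60.3 CPM in KO and 40.5 to 48.7 CPM in WT at day 14. Counts summed over all exons cannot show whether a floxed exon was removed. Scx separated the genotypes, at 557 to 1153 CPM in KO and 44.8 to 57.1 CPM in WT at day 7, and at 860 to 1958 CPM in KO and 70.3 to 142 CPM in WT at day 14. All 9 tenocyte markers examined had counts in every library. WT day 14 replicate 4 stood apart from the other libraries of its group, with 222 CPM of Pik3r1 against 118 to 143 CPM in the others and 73.2 CPM of Deptor against 27.7 to 44.3 CPM. Calls that appear or end without it are given both ways. Nothing in the labels ties each replicate to its own animal, and the p-values therefore rest on spread among libraries that may be technical.

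Levels were compared between genes as CPM per kilobase of merged exons, where CPM is the count scaled to library size (edgeR's cpm with TMM factors). Akt1 had the highest level of the 9 genes in every group, at 45.4 ± 2.21 CPM per kb at WT day 0, 70.5 ± 2.69 at KO day 7, 61.7 ± 6.44 at WT day 7, 59.7 ± 4.39 at KO day 14 and 57.5 ± 8.14 at WT day 14 (SD, n = 4). Rictor had the lowest in every group, with 2.63 ± 0.292 CPM per kb at WT day 0 and group means from 1.73 to 2.21 in the growing tendons. At WT day 0, Pik3r1 was second at 30.9 ± 2.61 CPM per kb, followed by Akt2 at 17.6, Tsc2 at 11.4, Pik3ca at 9.92, Mtor at 7.71, Deptor at 6.01 and Rptor at 4.14. At WT day 7 Pik3r1 had fallen to 11.6 ± 0.846 CPM per kb, close to Akt2 at 9.54 and Pik3ca at 8.41.

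**Figure D1:**
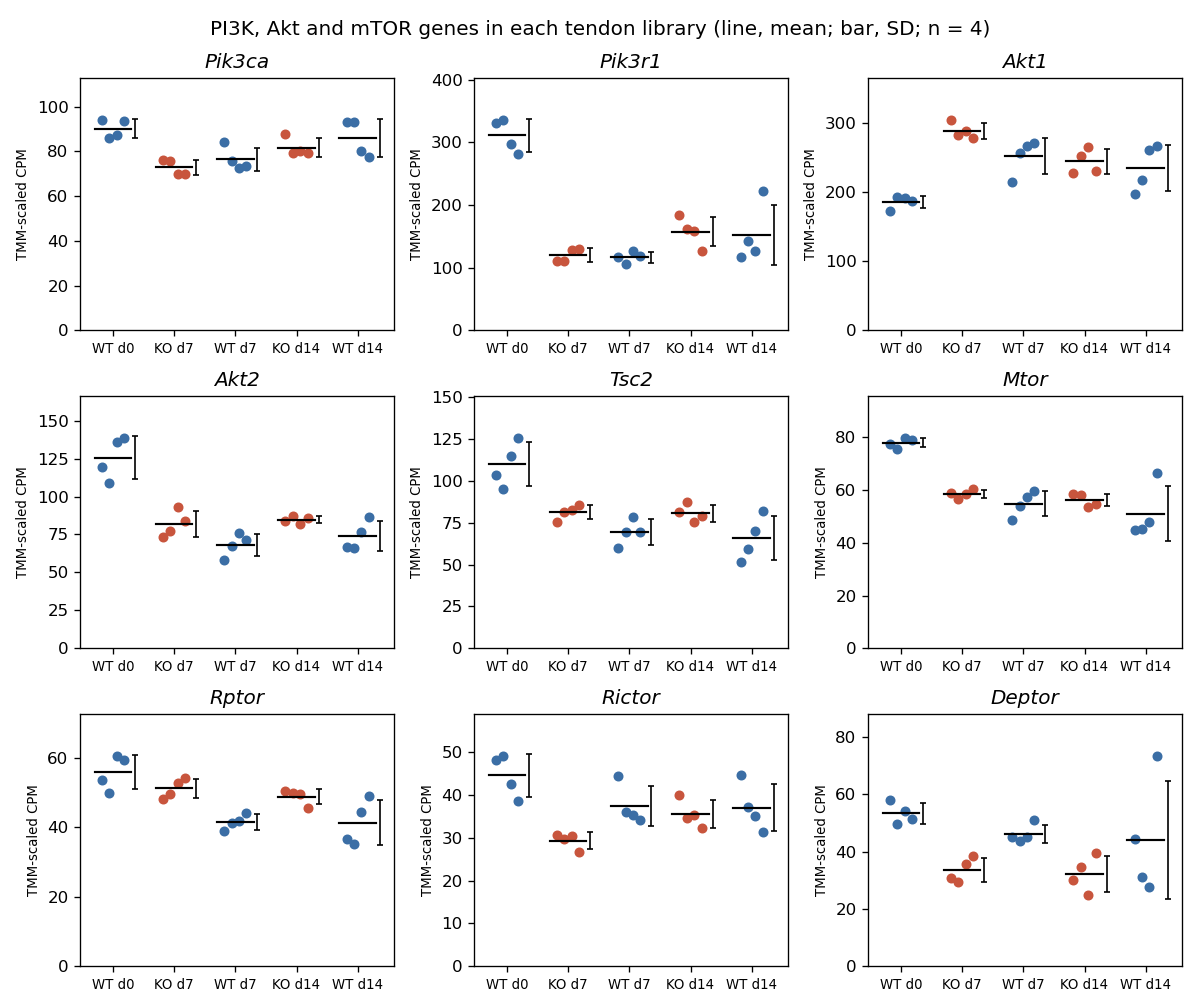
TMM-scaled CPM of each of the 9 genes (vertical axes, 1 panel per gene) in the 20 libraries, by group; each point is a library, the line is the group mean and the bar its SD (n = 4). Every WT day 0 library lies above every growing tendon for Pik3r1, Akt2, Tsc2 and Mtor, and below every growing tendon for Akt1. WT day 14 replicate 4 lies above its group for Pik3r1, Mtor and Deptor.

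Pik3r1 had the largest change from day 0 of the 9 genes. Pik3r1 (ENSMUSG00000041417, chromosome 13, 101680563 to 101768217, minus strand, GRCm38) encodes the p85-alpha regulatory subunit, which binds activated receptors and holds the catalytic subunit. The window around its annotated start is shown for that reason. It spans 250 bases before to 50 after a RefSeq start at chr13:101768168-101768467 (GRCm38.p6, minus strand), written 5′ to 3′ with matches to the GC box GGGCGG in capitals.
Pik3r1: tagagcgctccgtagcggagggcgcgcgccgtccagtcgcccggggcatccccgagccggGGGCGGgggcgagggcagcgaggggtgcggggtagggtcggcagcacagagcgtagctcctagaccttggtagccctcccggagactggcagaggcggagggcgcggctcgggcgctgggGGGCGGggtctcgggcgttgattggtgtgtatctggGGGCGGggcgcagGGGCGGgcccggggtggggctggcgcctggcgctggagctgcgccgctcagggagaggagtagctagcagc
That window holds 4 GC boxes, counted on both strands, and a second window of Pik3r1, at chr13:101692581-101692880, holds 0. Of 32851 RefSeq windows of the same length, 35.7% hold at least 1.

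Pik3r1 had 331, 335, 297 and 281 CPM in the WT day 0 libraries. At day 7 it had 111, 111, 129 and 130.0 CPM in KO and 117, 106, 126 and 118 CPM in WT. At day 14 it had 184, 161, 158 and 127 CPM in KO and 118, 143, 126 and 222 CPM in WT. Every growing tendon, of either genotype, lay below every tendon of day 0. Pik3r1 fell by 1.41 ± 0.155 on the log2 scale in WT day 7 against WT day 0 (SE; edgeR adjusted p = 1.82e-07), which is 0.375 times the day 0 level. It fell by 1.37 ± 0.155 in KO day 7 (adjusted p = 3.85e-07), by 1.03 ± 0.154 in WT day 14 (adjusted p = 1.43e-05) and by 0.98 ± 0.154 in KO day 14 (adjusted p = 2.99e-05), each against WT day 0. The exact permutation p was 0.0286 in each of these, the smallest that 4 against 4 libraries can give. Whole tendon was sequenced, so fewer cells of a type and less RNA per cell cannot be told apart.

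Pik3ca (ENSMUSG00000027665, chromosome 3, 32397671 to 32468486, plus strand) encodes the p110-alpha catalytic subunit, which IGF1 and insulin receptors use. It had 93.9, 85.8, 87.4 and 93.5 CPM at WT day 0. At day 7 the values were 75.9, 75.5, 69.9 and 69.9 CPM in KO and 84.1, 75.6, 72.5 and 73.6 CPM in WT, all under the lowest day 0 library. At day 14 they were 87.9, 79.1, 80.3 and 79.3 CPM in KO and 93.3, 93.0, 80.1 and 77.4 CPM in WT, and both groups overlapped day 0. Pik3ca fell by 0.31 ± 0.0726 log2 units in KO day 7 (edgeR adjusted p = 0.00124) and by 0.24 ± 0.0726 in WT day 7 (adjusted p = 0.00772). At day 14 the log2 change from day 0 was -0.14 in KO (adjusted p = 0.11) and -0.07 in WT (adjusted p = 0.445), short of the threshold. With the GC trend of each library taken out as an offset, both passed at -0.16 (adjusted p = 0.0159 in KO and 0.018 in WT). It moved least of the members that passed in both genotypes at day 7.

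The 2 Akt genes went opposite ways. Akt1 (ENSMUSG00000001729, chromosome 12, 112653821 to 112674884, minus strand) and Akt2 (ENSMUSG00000004056, chromosome 7, 27591552 to 27640826, plus strand) encode closely related kinases. In mouse knockouts, loss of Akt1 is known for small body size and loss of Akt2 for impaired insulin action. The RefSeq windows at both annotated starts are shown to set them side by side, at chr12:112674835-112675134 (minus strand) for Akt1 and chr7:27591302-27591601 (plus strand) for Akt2. Capitals mark the FoxO motif GTAAACA in the window of Akt1 and the GC box GGGCGG in that of Akt2, each on either strand.
Akt1: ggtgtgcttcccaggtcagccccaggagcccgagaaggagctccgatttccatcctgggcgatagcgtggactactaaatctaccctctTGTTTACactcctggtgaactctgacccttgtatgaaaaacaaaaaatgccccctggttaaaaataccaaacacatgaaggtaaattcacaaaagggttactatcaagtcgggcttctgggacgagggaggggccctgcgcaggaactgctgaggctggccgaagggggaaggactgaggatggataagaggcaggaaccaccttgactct
Akt2: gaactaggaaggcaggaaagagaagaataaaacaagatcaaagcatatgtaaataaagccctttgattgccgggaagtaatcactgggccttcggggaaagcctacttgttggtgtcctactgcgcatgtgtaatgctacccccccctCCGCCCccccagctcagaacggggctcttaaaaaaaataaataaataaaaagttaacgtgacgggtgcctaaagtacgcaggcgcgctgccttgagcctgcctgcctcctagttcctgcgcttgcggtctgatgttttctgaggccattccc
The FoxO motif, a sequence bound by transcription factors that Akt itself phosphorylates, is in 3.65% of the 32851 windows. All 13 windows of the members were searched, and the window of Akt1 shown held the only match. Whether the motif has a part in the level of Akt1 was not tested. The window of Akt2 shown holds 1 GC box and that of Akt1 none. A second window of Akt1, at chr12:112674227-112674526, holds 5, and the other windows of Akt2 hold none.

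Akt1 had 173, 193, 192 and 187 CPM in the WT day 0 libraries. Libraries of day 7 had 304, 283, 289 and 279 CPM in KO and 214, 257, 267 and 272 CPM in WT. Libraries of day 14 had 229, 253, 266 and 231 CPM in KO and 198, 217, 261 and 266 CPM in WT. No growing tendon was as low as any tendon of day 0, and the KO day 7 libraries were the highest set. Akt1 rose by 0.63 ± 0.096 log2 units in KO day 7 (edgeR adjusted p = 1.41e-05), by 0.44 ± 0.0958 in WT day 7 (adjusted p = 0.000493), by 0.39 ± 0.0958 in KO day 14 (adjusted p = 0.00203) and by 0.34 ± 0.0958 in WT day 14 (adjusted p = 0.00558), each against WT day 0. It was the only member that rose in any of these 4 comparisons.

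Akt2 had 119, 109, 136 and 138 CPM in the WT day 0 libraries. At day 7 it had 73.6, 77.1, 93.1 and 83.8 CPM in KO and 58.0, 67.2, 75.7 and 71.2 CPM in WT. At day 14 it had 83.7, 87.2, 81.7 and 86.0 CPM in KO and 66.5, 66.0, 76.5 and 86.5 CPM in WT. All 16 growing tendons were below day 0. Akt2 fell by 0.62 ± 0.103 log2 units in KO day 7 (edgeR adjusted p = 4.3e-05), by 0.88 ± 0.104 in WT day 7 (adjusted p = 4.36e-07), by 0.57 ± 0.103 in KO day 14 (adjusted p = 0.000148) and by 0.76 ± 0.104 in WT day 14 (adjusted p = 4.7e-06).

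The ratio of the counts of both genes is free of library scaling and was formed after their values were seen, so it is given without a test. Akt1 to Akt2 was 1.50 ± 0.191 at WT day 0, 3.56 ± 0.447 at KO day 7, 3.72 ± 0.139 at WT day 7, 2.89 ± 0.258 at KO day 14 and 3.19 ± 0.195 at WT day 14 (SD, n = 4). The highest day 0 library, at 1.78, lay under the lowest growing tendon, at 2.69. Pik3r1 to Pik3ca was highest at day 0, with 3.46 ± 0.371 at WT day 0, 1.66 ± 0.222 at KO day 7, 1.53 ± 0.172 at WT day 7, 1.93 ± 0.221 at KO day 14 and 1.81 ± 0.720 at WT day 14. WT day 14 replicate 4 had 2.87 for that ratio, and the other growing tendons had 1.26 to 2.09.

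**Figure D2:**
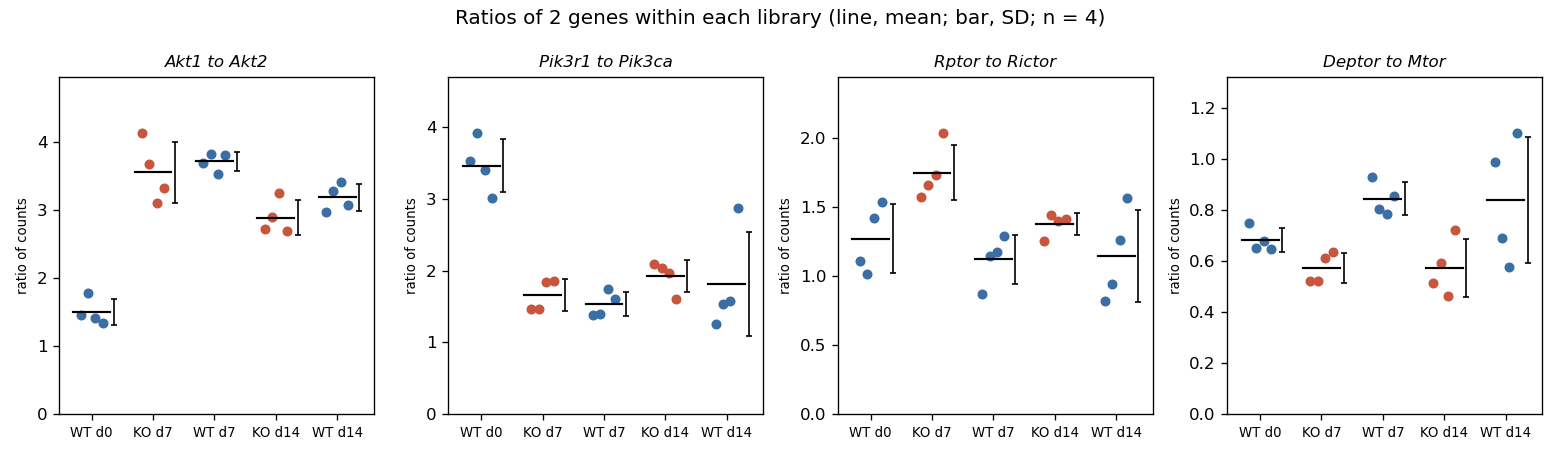
Ratio of the counts of 2 genes within each library (vertical axes), in 4 panels for Akt1 to Akt2, Pik3r1 to Pik3ca, Rptor to Rictor and Deptor to Mtor, by group; points are libraries, lines means and bars SD (n = 4). Akt1 to Akt2 is 1.35 to 1.78 at WT day 0 and 2.69 or more in every growing tendon, and Rptor to Rictor is 1.58 to 2.03 at KO day 7 and 0.875 to 1.29 at WT day 7. The ratios are descriptions and were not tested.

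Tsc2 (ENSMUSG00000002496, chromosome 17, 24595816 to 24632630, minus strand) encodes tuberin, the brake on mTOR complex 1 that Akt releases. It had 103, 95.3, 115 and 125 CPM at WT day 0. Libraries of day 7 had 75.4, 81.1, 82.5 and 85.2 CPM in KO and 59.9, 69.6, 78.5 and 69.6 CPM in WT, and at day 14 it had 81.1, 87.2, 75.1 and 78.9 CPM in KO and 51.7, 59.3, 70.1 and 82.1 CPM in WT. Every growing tendon was below every tendon of day 0. Tsc2 fell by 0.44 ± 0.117 log2 units in KO day 7 (edgeR adjusted p = 0.00351), by 0.66 ± 0.117 in WT day 7 (adjusted p = 6.43e-05), by 0.44 ± 0.117 in KO day 14 (adjusted p = 0.00382) and by 0.74 ± 0.118 in WT day 14 (adjusted p = 3.12e-05). Tsc2 shares 693 bases, or 7.2% of its exons, with Pkd1 on the opposite strand. The strand setting of the counting is not given, so reads from that stretch cannot be assigned.

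Mtor (ENSMUSG00000028991, chromosome 4, 148448611 to 148557683, plus strand) encodes the kinase of both complexes. It had 77.3, 75.7, 79.6 and 79.2 CPM at WT day 0, the smallest SD of any member at WT day 0. At day 7 it had 58.9, 56.6, 58.5 and 60.5 CPM in KO and 48.6, 54.1, 57.3 and 59.6 CPM in WT. Libraries of day 14 had 58.4, 58.2, 53.6 and 54.8 CPM in KO and 44.8, 45.1, 48.1 and 66.4 CPM in WT. All growing tendons lay below day 0, WT day 14 replicate 4 included. Mtor fell by 0.41 ± 0.0977 log2 units in KO day 7 (edgeR adjusted p = 0.00133), by 0.51 ± 0.0977 in WT day 7 (adjusted p = 0.000154), by 0.47 ± 0.0979 in KO day 14 (adjusted p = 0.000538) and by 0.61 ± 0.098 in WT day 14 (adjusted p = 3.36e-05).

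Rptor (ENSMUSG00000025583, chromosome 11, 119602905 to 119899576, plus strand) encodes raptor, which presents substrates to mTOR complex 1. Rictor (ENSMUSG00000050310, chromosome 15, 6708379 to 6800401, plus strand) encodes the subunit that defines mTOR complex 2. Their RefSeq windows are shown because these were the members that passed between genotypes, at chr11:119602655-119602954 for Rptor and chr15:6708131-6708430 for Rictor (GRCm38.p6, both plus strand), with GC boxes in capitals.
Rptor: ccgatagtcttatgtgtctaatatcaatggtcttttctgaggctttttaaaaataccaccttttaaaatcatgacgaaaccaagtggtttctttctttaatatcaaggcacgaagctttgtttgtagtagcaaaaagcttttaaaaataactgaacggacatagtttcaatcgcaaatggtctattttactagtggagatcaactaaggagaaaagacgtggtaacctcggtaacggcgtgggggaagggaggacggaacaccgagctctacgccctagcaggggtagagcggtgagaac
Rictor: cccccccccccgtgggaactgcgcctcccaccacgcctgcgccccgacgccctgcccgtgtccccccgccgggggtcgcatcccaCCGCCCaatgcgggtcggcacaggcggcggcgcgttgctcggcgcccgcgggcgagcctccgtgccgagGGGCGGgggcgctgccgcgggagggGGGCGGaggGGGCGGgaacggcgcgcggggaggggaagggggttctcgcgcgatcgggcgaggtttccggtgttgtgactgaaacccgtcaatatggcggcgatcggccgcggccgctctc
The window of Rptor is 41.7% G or C with no match to any motif searched, and that of Rictor 78.3% with 4 GC boxes. The transcripts run the other way, at 56.5% G or C over the longest transcript of Rptor and 42.5% over that of Rictor. None of the 8 members with a RefSeq window held the E-box CACGTG or the cyclic AMP response element TGACGTCA, which are in 7.15% and 1.79% of all windows, and Pik3ca had the only AP-1 match, TGANTCA, found in 7.81% of windows.

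Rptor had 53.6, 49.9, 60.3 and 59.4 CPM at WT day 0. Libraries of day 7 had 48.2, 49.5, 52.7 and 54.1 CPM in KO and 38.8, 41.3, 41.6 and 44.2 CPM in WT. At day 14 it had 50.4, 49.7, 49.5 and 45.5 CPM in KO and 36.7, 35.2, 44.4 and 48.9 CPM in WT. The WT growing tendons lay under day 0, whereas the KO libraries overlapped it. Rptor fell by 0.43 ± 0.0917 log2 units in WT day 7 (edgeR adjusted p = 0.000433) and by 0.43 ± 0.0919 in WT day 14 (adjusted p = 0.000542). The changes of -0.13 in KO day 7 (adjusted p = 0.252) and -0.19 in KO day 14 (adjusted p = 0.0866) missed the threshold. With the GC trend of each library taken out as an offset both passed, at -0.20 in KO day 7 (adjusted p = 0.0149) and -0.21 in KO day 14 (adjusted p = 0.0158). Of its exons, 84 bases are shared with the antisense gene Rptoros.

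Rictor had 48.2, 49.0, 42.5 and 38.5 CPM at WT day 0. At day 7 it had 30.6, 29.8, 30.5 and 26.6 CPM in KO and 44.4, 36.1, 35.4 and 34.1 CPM in WT. Libraries of day 14 had 40.1, 34.5, 35.4 and 32.2 CPM in KO and 44.6, 37.2, 35.2 and 31.2 CPM in WT. KO day 7 was the only group that lay wholly under day 0. Rictor fell by 0.60 ± 0.11 log2 units in KO day 7 (edgeR adjusted p = 0.000109) and by 0.33 ± 0.11 in KO day 14 (adjusted p = 0.0187). It fell by 0.27 ± 0.11 in WT day 14 (adjusted p = 0.0474), a call that ends without WT day 0 replicate 1, 2 or 3 or WT day 14 replicate 2, 3 or 4 (adjusted p from 0.0553 to 0.154), with upper-quartile scaling (adjusted p = 0.0869), with no filter on low counts (adjusted p = 0.0604) and with only the compared groups (adjusted p = 0.0961). The call in KO day 14 ends without KO day 14 replicate 4 or WT day 0 replicate 1 or 2 (adjusted p from 0.0626 to 0.0669). In WT day 7 the change was -0.25 ± 0.109 (adjusted p = 0.054). It passed with RLE scaling, the filter of 1 CPM, the compared groups only and the replicate block (adjusted p from 0.00385 to 0.0457), and with the GC offset at -0.37 (adjusted p = 0.00132). It also passed without WT day 0 replicate 4 (-0.31, adjusted p = 0.0237) or WT day 7 replicate 1 (-0.34, adjusted p = 0.0123).

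Deptor (ENSMUSG00000022419, chromosome 15, 55112317 to 55259271, plus strand) encodes a protein that binds mTOR and inhibits both complexes. It had 58.1, 49.5, 54.2 and 51.4 CPM at WT day 0. Libraries of day 7 had 30.8, 29.6, 35.8 and 38.4 CPM in KO and 45.3, 43.7, 45.1 and 50.9 CPM in WT. At day 14 it had 30.1, 34.5, 24.8 and 39.6 CPM in KO and 44.3, 31.3, 27.7 and 73.2 CPM in WT. Both KO groups lay wholly below day 0, and both WT groups overlapped it. Deptor fell by 0.66 ± 0.218 log2 units in KO day 7 (edgeR adjusted p = 0.0143) and by 0.72 ± 0.219 in KO day 14 (adjusted p = 0.0104). The change was -0.21 ± 0.217 in WT day 7 (adjusted p = 0.422) and -0.27 ± 0.217 in WT day 14 (adjusted p = 0.303). With only the compared groups fitted, Deptor passed in WT day 7 (-0.22, adjusted p = 0.0279). Without WT day 14 replicate 4 that change in WT day 14 was -0.63 and passed (adjusted p = 0.00193). Deptor shares 303 bases with Gm9920 on the opposite strand.

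**Figure D3:**
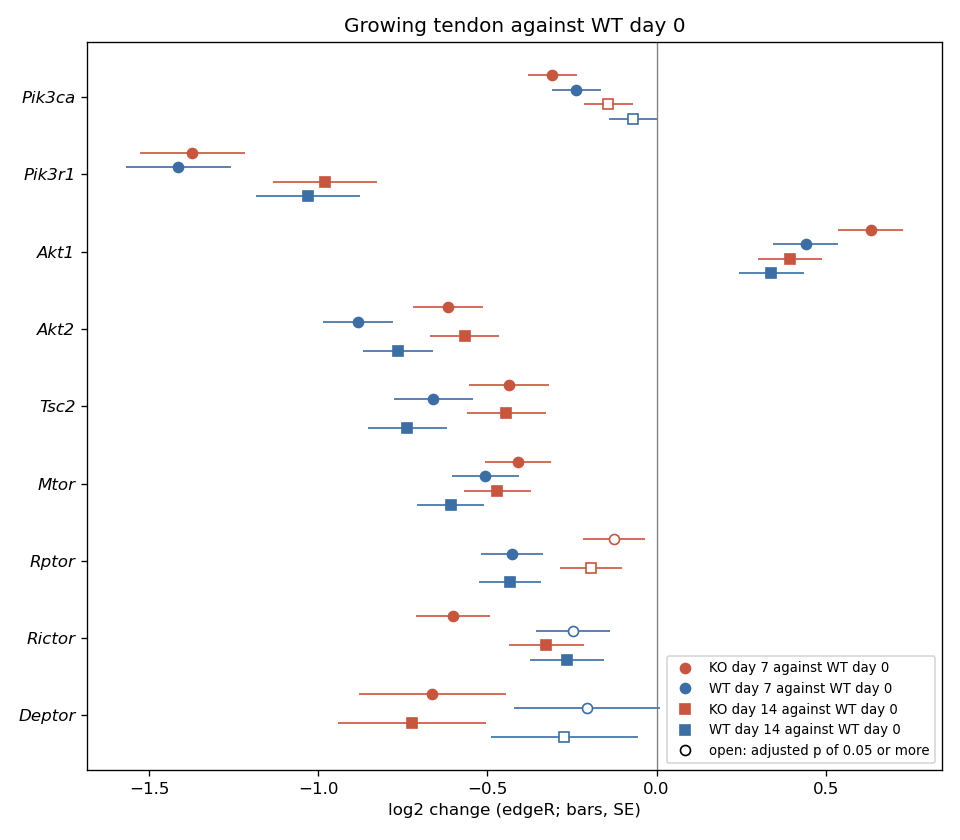
Log2 change of each gene (rows) in KO day 7, WT day 7, KO day 14 and WT day 14, each against WT day 0, with bars for the SE and filled marks where the edgeR adjusted p is below 0.05. Akt1 lies to the right of 0 in all 4 comparisons and Pik3r1 farthest to the left, while Rptor is filled in WT alone and Deptor in KO alone in this fit; other settings named in the text fill some of the open marks.

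Counted over the 9 genes, WT day 7 against WT day 0 had 1 member higher and 6 lower at an adjusted p below 0.05, where 64.1% of all genes tested passed (32.3% higher and 31.8% lower). In 7 members the groups did not overlap, against 60.6% of all genes. KO day 7 against WT day 0 had 1 higher and 7 lower (background 57.7%, with 29.4% higher and 28.3% lower; 8 members without overlap, against 56.1%). KO day 14 against WT day 0 had 1 higher and 6 lower (background 50.3%, with 25.4% higher and 25.0% lower; 6 without overlap, against 46.6%), and WT day 14 against WT day 0 had 1 higher and 6 lower (background 54.3%, with 28% higher and 26.2% lower; 6 without overlap, against 46.1%). In either direction 77.8% of the members passed in WT day 7, KO day 14 and WT day 14 and 88.9% in KO day 7, and the share called lower was above that of all genes in each comparison. These genes were chosen with earlier results known and the set was not tested, so nothing particular to it is read from these shares. The median log2 change over the members was -0.44 in KO day 7, -0.43 in WT day 7, -0.44 in KO day 14 and -0.43 in WT day 14, and that over all genes tested was 0.01, 0.02, 0.00 and 0.02 in the same order. The 4 comparisons share the WT day 0 libraries and are not independent of each other. The growing tendons also differ from day 0 in tamoxifen, so stimulus and tamoxifen cannot be told apart.

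Markers of other cell types moved with the same contrast. Of 15 skeletal muscle fibre markers, 14 fell in WT day 7 against WT day 0, and their summed level was 25962 to 66785 CPM at WT day 0, 4886 to 12143 at KO day 7, 206 to 1561 at WT day 7, 1531 to 25493 at KO day 14 and 2692 to 22806 at WT day 14. All 8 adipocyte markers fell and all 10 macrophage markers rose in WT day 7, the macrophage sum being 1572 to 1815 CPM at WT day 0, 3503 to 5006 at KO day 7 and 3500 to 5963 at WT day 7. The adipocyte sum was 1847 to 2874 CPM at WT day 0, 285 to 653 at KO day 7 and 325 to 753 at WT day 7. All 8 proliferation markers rose in WT day 7, with sums of 46.7 to 59.3 CPM at WT day 0, 301 to 454 at KO day 7 and 425 to 607 at WT day 7. Of 8 endothelial markers 5 fell in WT day 7, and of 7 Schwann cell markers 6 fell and 1 rose. Of 5 neutrophil markers tested, 4 rose. The 9 tenocyte markers were split, with 2 higher, 3 lower and 4 that did not pass. None of these markers was at 0 in every library. Their part in the changes of the pathway genes was not tested.

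The comparison of KO with WT at day 7 sets growing tendons with Igf1r targeted in tenocytes beside growing tendons without the recombinase. The KO mice were ScxCreERT2+/+ and the WT mice ScxCreERT2-/-, at day 14 as well. Igf1r targeting and the ScxCreERT2 allele itself thus cannot be told apart. Of the 9 genes, Rptor was higher and Rictor lower in KO, where 14.8% of all genes passed (9.39% higher and 5.42% lower). Rptor averaged 51.1 ± 2.76 CPM in KO and 41.5 ± 2.19 CPM in WT (SD, n = 4 each), a rise of 0.30 ± 0.0916 log2 units (SE; edgeR adjusted p = 0.033). Rictor averaged 29.4 ± 1.88 CPM in KO and 37.5 ± 4.65 CPM in WT, a fall of 0.35 ± 0.11 log2 units (adjusted p = 0.0363). For both genes the 4 KO libraries did not overlap the 4 WT libraries (exact permutation p = 0.0286). Akt1 and Deptor did not overlap either, so that 4 of 9 members stood apart in this way, against 24.4% of all genes. The median log2 change over the members was 0.09, and -0.01 over all genes tested.

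Akt1 averaged 289 ± 11.0 CPM in KO and 253 ± 26.4 CPM in WT at day 7, and its log2 change of 0.19 did not pass (adjusted p = 0.18). Deptor averaged 33.6 ± 4.16 CPM in KO and 46.2 ± 3.21 CPM in WT, a log2 change of -0.46 ± 0.217 (adjusted p = 0.162), which passed when these groups alone were fitted (adjusted p = 0.0121). Akt2 was 81.9 ± 8.60 CPM in KO and 68.0 ± 7.53 CPM in WT (log2 change 0.27, adjusted p = 0.085). The log2 change was 0.22 for Tsc2, 0.09 for Mtor, 0.04 for Pik3r1 and -0.07 for Pik3ca, with adjusted p between 0.204 and 0.887. The 95% confidence interval for Pik3r1, -0.28 to 0.37, is narrow beside its fall from day 0, and that of Pik3ca was -0.23 to 0.08.

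Both calls between genotypes at day 7 were close to the threshold. The Rictor call ended in 7 of the 8 fits that left out 1 library (all but the one without WT day 7 replicate 4; adjusted p from 0.0508 to 0.131), where its log2 change was -0.26 to -0.37. The Rptor call ended without KO day 7 replicate 3 or 4 or WT day 7 replicate 1, 2 or 3 (adjusted p from 0.0572 to 0.0971), where its log2 change was 0.28 to 0.31. The libraries also differed in how GC-rich and GC-poor genes were represented. This tilt, the median log2 deviation of genes with at least 55.4% GC minus that of genes with at most 43.8%, was 0.113 to 0.212 at KO day 7 and -0.393 to -0.0580 at WT day 7, with no overlap. Rptor lies at 56.5% and Rictor at 42.5% GC, on opposite sides of that gradient. With the GC trend of each library taken out as an offset, the log2 changes were 0.13 for Rptor (adjusted p = 0.243) and -0.22 for Rictor (adjusted p = 0.119), and no member passed. Akt1, the most GC-rich member at 59.7%, had a log2 change of -0.08 with that offset and 0.19 without it. The offset was estimated from these same libraries, and the tilt separated the genotypes at day 7. The GC trend of the libraries and genotype thus cannot be told apart here. The part of the tilt in these calls was not tested.

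**Figure D4:**
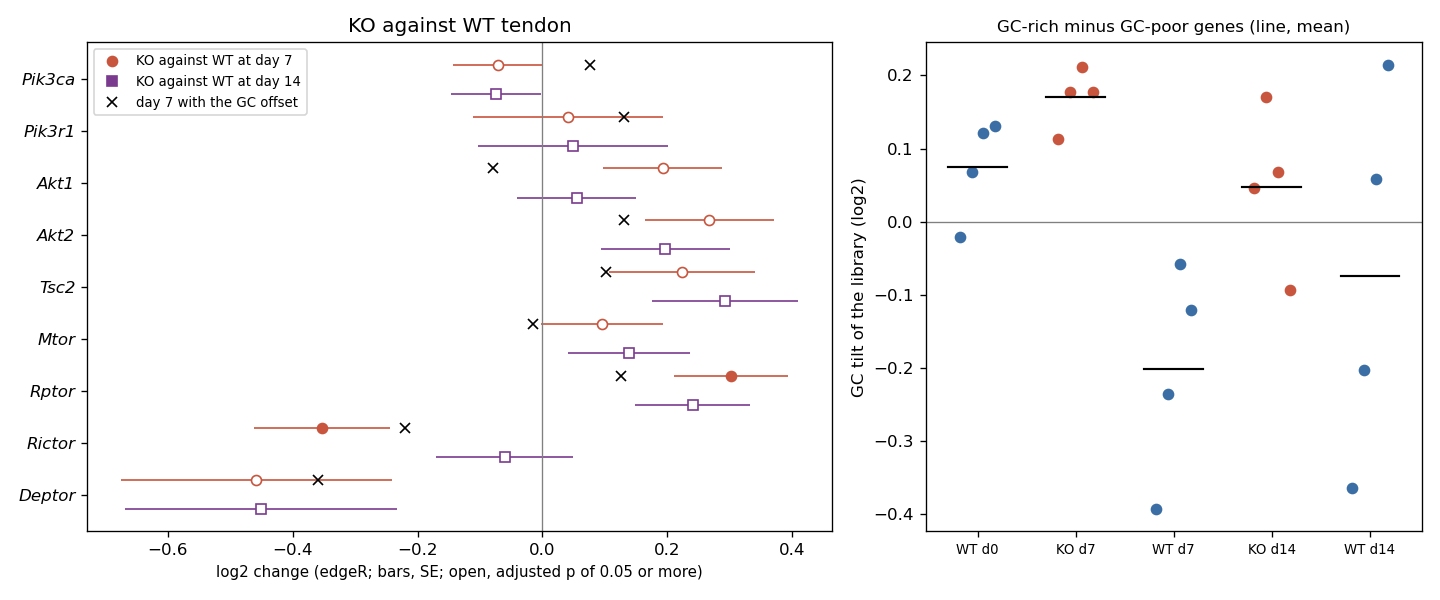
Left, log2 change of each gene in KO against WT at day 7 (circles) and day 14 (squares), with bars for the SE, filled marks for an adjusted p below 0.05, and crosses for day 7 with the GC offset. Right, the GC tilt of each library on a log2 scale by group, with the mean as a line; KO day 7 libraries lie between 0.113 and 0.212 and WT day 7 libraries between -0.393 and -0.0580.

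Muscle and tenocyte markers also separated the genotypes at day 7. Of 15 muscle fibre markers 13 were higher in KO and 2 did not pass, with a summed level of 4886 to 12143 CPM in KO and 206 to 1561 CPM in WT. Of 9 tenocyte markers 5 were higher in KO, with sums of 85203 to 105364 CPM in KO and 45256 to 56423 CPM in WT. Of 10 macrophage markers 2 were lower in KO, with sums of 3503 to 5006 CPM in KO and 3500 to 5963 CPM in WT. The tenocyte list holds Scx, the gene that drives the recombinase. The part of these markers in the values of Rptor, Rictor and Deptor was not tested.

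Within the libraries, Rptor to Rictor was 1.75 ± 0.200 at KO day 7 and 1.12 ± 0.177 at WT day 7 (SD, n = 4 each), 1.38 ± 0.0822 at KO day 14 and 1.15 ± 0.334 at WT day 14, and 1.27 ± 0.248 at WT day 0. Deptor to Mtor was 0.573 ± 0.0589 at KO day 7 and 0.845 ± 0.0646 at WT day 7, 0.574 ± 0.113 at KO day 14 and 0.840 ± 0.246 at WT day 14, and 0.684 ± 0.0470 at WT day 0. Both pairs were chosen after the values were seen and the ratios are descriptions. At day 7 the KO and WT libraries did not overlap for either ratio, and at day 14 they overlapped for both. The longest transcript of Rptor has 56.5% and that of Rictor 42.5% GC, and that of Deptor 44.3% and that of Mtor 54.2%. The part of the GC tilt in both ratios was not tested.

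KO against WT at day 14 had no member past the threshold in edgeR, where 1.78% of all genes passed (1.06% higher and 0.719% lower). At an unadjusted p below 0.05 there were 2, Rptor with a log2 change of 0.24 ± 0.092 (adjusted p = 0.188) and Tsc2 with 0.29 ± 0.117 (adjusted p = 0.212). Rptor averaged 48.8 ± 2.22 CPM in KO and 41.3 ± 6.48 CPM in WT, and Tsc2 80.6 ± 5.06 CPM in KO and 65.8 ± 13.2 CPM in WT. Deptor averaged 32.3 ± 6.30 CPM in KO and 44.1 ± 20.6 CPM in WT, a log2 change of -0.45 (adjusted p = 0.308). Without WT day 14 replicate 4 the Deptor change was -0.09 (adjusted p = 0.76). None of the 9 was free of overlap between genotypes (6.13% of all genes were), and the SD in WT exceeded that in KO for each of the 9 genes. Without WT day 14 replicate 4, Mtor (0.29, adjusted p = 0.0133), Rptor (0.33, adjusted p = 0.0235) and Tsc2 (0.42, adjusted p = 0.0253) were higher in KO, and 1672 genes passed in place of 337. That library had a summed tenocyte marker level of 143722 CPM and a muscle fibre sum of 22806 CPM, each the highest of its group. Scx, a member of the tenocyte list, was lowest of the group in that library, at 70.3 CPM. The part of these markers in the values above was not tested. The GC tilt at day 14 was -0.0937 to 0.170 in KO and -0.364 to 0.215 in WT, with replicate 4 at the high end.

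Whether the KO effect differed between the days was tested as the interaction of genotype and day. No member passed and none had an unadjusted p below 0.05. Of all 18918 genes, 0 passed in edgeR, 2039 had an unadjusted p below 0.05, and 179 passed in DESeq2. The log2 difference between the KO effects was 0.29 ± 0.155 for Rictor (day 14 minus day 7; adjusted p = 0.519), the largest of the members, with a 95% confidence interval of -0.04 to 0.62. The fall of Rictor in KO at day 7 was therefore not shown to differ from its change of -0.06 at day 14.

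From day 7 to day 14 no member changed past the threshold in either genotype, where 15.7% of all genes passed in KO (7.09% higher and 8.57% lower) and 30.4% in WT (16.0% higher and 14.3% lower). In KO day 14 against KO day 7, edgeR gave 4 members an unadjusted p below 0.05. These were Pik3ca (log2 change 0.17, adjusted p = 0.13), Pik3r1 (0.39, adjusted p = 0.0873), Akt1 (-0.24, adjusted p = 0.0958) and Rictor (0.28, adjusted p = 0.0943), and 3 of them, Pik3ca, Akt1 and Rictor, did not overlap between the days (20.6% of all genes did not). In WT day 14 against WT day 7, 2 had an unadjusted p below 0.05, Pik3ca (0.17, adjusted p = 0.0864) and Pik3r1 (0.38, adjusted p = 0.064), and none was free of overlap (25.6% of all genes were). For each of the 4 members named for KO, the mean at KO day 14 lay between those at KO day 7 and WT day 0. Without WT day 14 replicate 4, Deptor (-0.42), Mtor (-0.25) and Pik3ca (0.22) passed in WT, with adjusted p between 0.00777 and 0.0432. The WT change of Pik3r1 was 0.14 without that library (adjusted p = 0.361), and passed at 0.49 without replicate 1 and at 0.46 without replicate 3 of WT day 14 (adjusted p = 0.022 and 0.0405). With the GC offset Pik3ca (0.20) and Akt1 (-0.25) passed in WT, and with only both KO groups fitted Akt1 (-0.23), Pik3r1 (0.40) and Rictor (0.28) passed in KO.

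The other genes of the pathway were taken as 72 genes in 7 lists, all of which were tested. WT day 7 against WT day 0 had 28 higher and 22 lower, 69.4% against 64.1% of all genes. KO against WT at day 7 had 11 higher and 8 lower, 26.4% against 14.8%. KO day 7 against WT day 0 had 25 higher and 18 lower, 59.7% against 57.7%. KO day 14 against WT day 0 had 18 higher and 19 lower, 51.4% against 50.3%, and WT day 14 against WT day 0 had 22 higher and 19 lower, 56.9% against 54.3%. Muscle and macrophage markers moved in the same comparisons as given above, and their part in these counts was not tested.

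**Figure D5:**
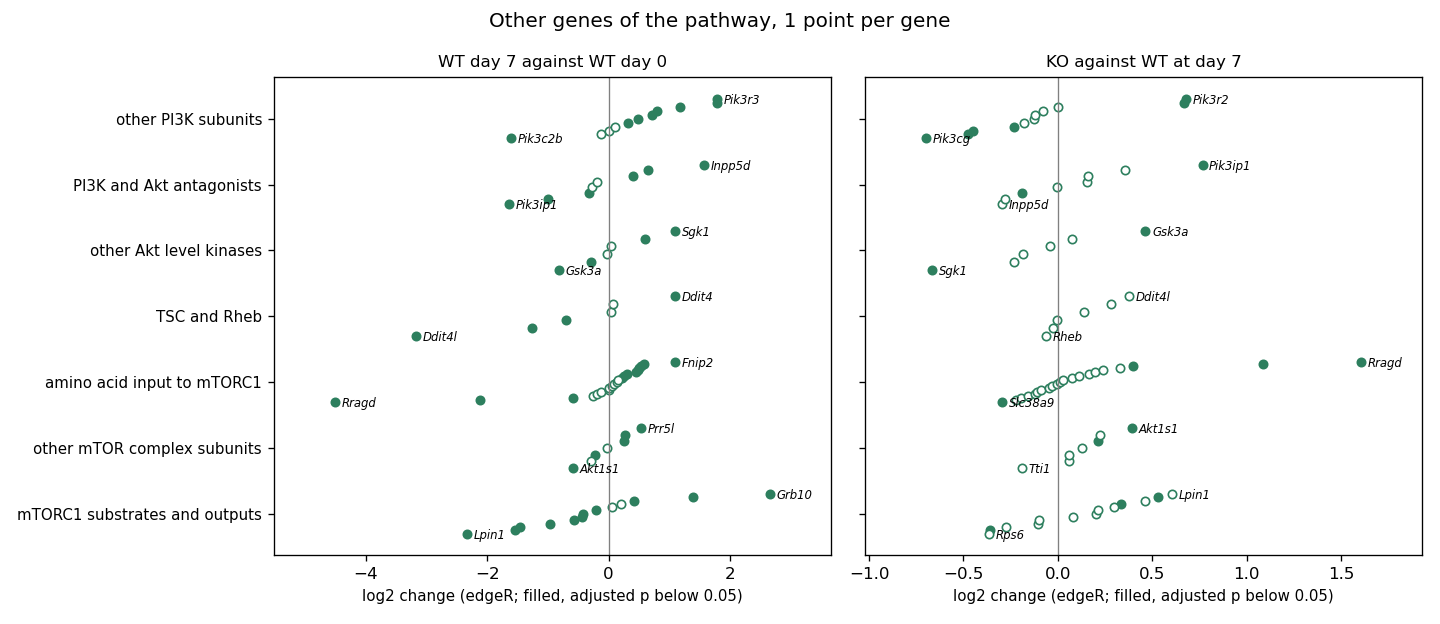
Log2 change of each of the 72 other pathway genes (1 point per gene, rows by list, filled where the edgeR adjusted p is below 0.05) in WT day 7 against WT day 0, left, and in KO against WT at day 7, right. Rragd (-4.52) and Grb10 (2.65) lie at the ends on the left, and Rragd (1.61) and Pik3cg (-0.70) on the right; the horizontal scales differ.

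The counts of each list in WT day 7 against WT day 0 stand beside 32.3% of all genes higher and 31.8% lower, with a median log2 change of 0.02. Of 11 other PI3K subunits, 7 rose, 1 fell and 3 did not pass (median 0.49). Pik3r3, a regulatory subunit, rose by 1.79 and Pik3r5, the partner of the gamma catalytic subunit, by 1.78 log2 units. Pik3cd, the delta catalytic subunit, which is abundant in white blood cells, rose by 1.17, and Pik3c2b, a class II enzyme, fell by 1.61. The regulatory subunits thus did not move as one, since Pik3r1 fell in the same libraries. Pik3r3 was 8.95 ± 0.965 CPM at WT day 0, 30.8 ± 6.78 at KO day 7, 30.8 ± 11.1 at WT day 7, 47.7 ± 8.15 at KO day 14 and 49.6 ± 10.7 at WT day 14.

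Among 8 antagonists of PI3K and Akt, 3 rose and 3 fell in WT day 7 (median log2 change -0.23). Inpp5d, a lipid phosphatase of blood cells, rose by 1.58 log2 units. Pik3ip1, a membrane inhibitor of PI3K, fell by 1.64 and the phosphatase Inppl1 by 0.99. Of 6 other kinases at the level of Akt, 2 rose and 2 fell (median 0.01). Sgk1, a kinase related to Akt, rose by 1.09 and Sgk3 by 0.60, whereas Gsk3a, a substrate of Akt, fell by 0.82.

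Of 6 genes of the TSC complex and Rheb, 1 rose and 3 fell in WT day 7 (median log2 change -0.33). Ddit4, an inhibitor of mTOR complex 1 induced by stress, rose by 1.10 log2 units, while its relative Ddit4l fell by 3.18, Tsc1, the partner of Tsc2, by 0.70 and Rhebl1 by 1.26. Of 7 other subunits of the mTOR complexes, 3 rose and 2 fell (median -0.03). Mapkap1, a subunit of complex 2, rose by 0.25, Mlst8, shared by both complexes, by 0.27, and Akt1s1, an inhibitory subunit of complex 1, fell by 0.58. The Mlst8 call ended without WT day 0 replicate 2 or WT day 7 replicate 3 (adjusted p = 0.108 and 0.058), and the Akt1s1 change was -0.36 with the GC offset, still past the threshold.

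Of 21 genes that carry the amino acid signal to mTOR complex 1, 9 rose and 3 fell in WT day 7 (median log2 change 0.14). Fnip2 rose by 1.09 and Rraga, a Rag GTPase, by 0.48 log2 units, while the Rag GTPases Rragb and Rragd fell by 2.12 and 4.52. Rragd was 2.81 to 6.10 CPM at WT day 7 and 60.0 to 144 CPM at WT day 0. Of 13 substrates and outputs of mTOR complex 1, 3 rose and 8 fell (median -0.42). Grb10, an adaptor that restrains insulin and IGF1 receptors, rose by 2.65, with 498 ± 59.3 CPM in WT day 7 and 79.2 ± 6.50 CPM in WT day 0. Lpin1, Tfeb and Maf1, which act in lipid metabolism, lysosome gene expression and RNA polymerase III control, fell by 2.34, 1.46 and 0.97.

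Between genotypes at day 7, Sesn2, which senses leucine and restrains mTOR complex 1, had the smallest p of the 72. It was 26.1 ± 0.893 CPM in KO and 12.3 ± 1.22 CPM in WT, a rise of 1.09 ± 0.137 log2 units (edgeR adjusted p = 6.63e-05). At day 14 it was 23.2 ± 2.64 CPM in KO and 12.7 ± 3.35 CPM in WT, a rise of 0.87 ± 0.137 (adjusted p = 0.00145). Sgk1 fell in KO by 0.67 at day 7 (adjusted p = 0.0136) and by 0.92 at day 14 (adjusted p = 0.00649), with 162 ± 22.9 CPM in KO and 258 ± 54.7 CPM in WT at day 7, and 113 ± 2.59 CPM in KO and 214 ± 65.8 CPM in WT at day 14. Its day 7 call ended without KO day 7 replicate 4 or WT day 7 replicate 2 (adjusted p from 0.0513 to 0.0605). Sesn2 and Sgk1 were the 2 of 72 that passed at day 14, 2.78% against 1.78% of all genes, and both were lost when the day 14 groups alone were fitted (adjusted p = 0.0695 and 0.085).

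Other genes also passed at day 7. Pik3r2, the p85-beta regulatory subunit, was 91.1 ± 5.78 CPM in KO and 57.0 ± 5.88 CPM in WT, a rise of 0.68 log2 units that was 0.36 with the GC offset and still passed (adjusted p = 0.0129). Pik3cg, the gamma catalytic subunit, was 24.7 ± 3.31 CPM in KO and 40.0 ± 6.62 CPM in WT, a fall of 0.70 (adjusted p = 0.0019). Pdcd4, an inhibitor of translation, rose by 0.34 (adjusted p = 0.0133). Of 17 named genes that passed, 4 kept the call in every setting tried (Sesn2, Pik3r2, Pik3cg and Pdcd4) and 9 lost it with the GC offset. Among those 9 was Akt1s1, whose log2 change was 0.39 without the offset and 0.09 with it.

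The genes whose pattern was most like each member were found by the root mean square difference of centred log2 CPM over the 20 libraries, among 11142 candidates. They were Fzd4 and Ctdspl for Pik3r1 (0.17 log2 units each), Rb1cc1 and Rnf170 for Pik3ca (0.06 and 0.07), Ext2 and Ube2q1 for Akt1 (0.07 each) and Ube2r2 and Polr2m for Akt2 (0.09 each). Lonp1 and Emc1 were nearest to Mtor, Arhgap35 and Usp19 to Rptor, Tgfbr1 and Ino80d to Rictor, and Wbp2 and Dnmbp to Tsc2, at 0.07 to 0.11. Deptor had no close match, its nearest genes Ssh2 and Il20rb lying at 0.26 where its own spread was 0.40. Fzd4, nearest to Pik3r1, was 148 ± 15.9 CPM at WT day 0, 57.4 ± 5.89 at KO day 7, 62.1 ± 3.54 at WT day 7, 81.0 ± 10.1 at KO day 14 and 82.5 ± 12.8 at WT day 14.

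All 9 members are in the authors' deposited table of comparisons, which lists 13266 genes. In the authors' deposited table, 1 member was higher and 1 lower in KO against WT at day 7 at a false discovery rate below 0.05, Rptor with a log2 fold change of 0.30 (0.0279) and Rictor with -0.36 (0.03), and none passed at day 14. The authors' deposited table also gave Rictor as lower in WT day 7 against WT day 0 (log2 fold change -0.26, false discovery rate 0.0413), where the fit here gave an adjusted p of 0.054. In the authors' deposited table, the column headed as KO day 14 against WT day 7 equals the KO effect at day 14 minus that at day 7 for all 13266 genes, to within rounding, so its values were read as the interaction.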

How the data were processed

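The deposited counts table holds raw counts per gene for 20 libraries of mouse plantaris tendon. Per the labels' protocols, RNA was extracted with a miRNeasy Micro Kit and DNase. The submitters' processing notes name FastQC, STAR, edgeR and mm10; tool versions, counting program, gene annotation and strandedness were not given in the sources used here. The authors deposited a second table with log2 fold changes and p-values of their own comparisons.

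Counts were tested with edgeR 4.0.16 in R 4.3.3 (filterByExpr, TMM, robust quasi-likelihood), in 1 fit over all 5 groups, with Benjamini-Hochberg adjustment over 18918 genes and a threshold of 0.05. Exact permutation tests were two-sided. SE is that of the fitted log2 change, and log2 CPM used a prior count of 2. Exon lengths and GC content came from GENCODE on GRCm38, with GC content taken from the longest transcript of each gene. Promoter windows came from RefSeq (GRCm38.p6), where 8 of 9 members matched. Depth was 32254411 to 63522834 counts a library. The test was checked on simulated data.

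Alternatives were RLE and upper-quartile scaling, other filters, DESeq2 1.42.0, limma-voom 3.58.1, a fit of the compared groups only, a replicate block and leaving out each library. A GC offset per library was added after seeing the data. The members and lists were chosen with earlier results of these data known. All members are named, and up to 4 genes with the smallest p among those past the threshold in each other list.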

Additional observations from a re-analysis of the deposited data

Results flagged for a closer look

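In 2 of the 45 sets of 4 libraries examined (9 genes in 5 groups), 1 library lay far from the other 3 by Dixon's criterion at 95%. Chance flags about 1 set in 20. Mtor had 66.4 CPM in WT day 14 replicate 4, and 44.8, 45.1 and 48.1 CPM in the other WT day 14 libraries, a gap of 0.849 of the whole range. Pik3ca had 87.9 CPM in KO day 14 replicate 1, and 79.1, 80.3 and 79.3 CPM in the other KO day 14 libraries, a gap of 0.865 of the whole range.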

How the results depend on the processing

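No member changed direction past the threshold under any setting. Over the settings that keep all libraries, 274 of 279 values of members with a call kept it and 19 of 450 without one gained it. Leaving out 1 library, 227 of 248 kept it and 13 of 472 gained it. The number of members past the threshold in WT day 14 against WT day 7 was 1 with the replicate block and 2 with the GC offset, against 0. In KO day 14 against KO day 7 it was 1 with the replicate block and 3 with only the compared groups, against 0. In KO against WT at day 7 it was 0 with the GC offset, against 2, and Akt2 passed with the replicate block (0.27, adjusted p = 0.0278). For all genes, KO against WT at day 14 gave 722 with DESeq2 and 86 with only the compared groups, against 337, and the interaction gave 179 with DESeq2, against 0. Leaving out 1 library gave 0 to 3 members in KO against WT at day 14, 0 to 2 at day 7, 0 to 1 in KO day 14 against KO day 7 and 0 to 3 in WT day 14 against WT day 7. It gave 152 to 1672 genes in KO against WT at day 14, 1440 to 2659 at day 7, 1693 to 2956 in KO day 14 against KO day 7 and 0 to 11 in the interaction. The causes were not tested. Among 40 same-numbered pairs of libraries, 14 deviated together (correlation over 0.1; range -0.165 to 0.272), and 7 of 20 libraries correlated best with their own number. The median correlation was 0.0474 for same-numbered pairs and -0.00903 for the other pairs. These values do not settle whether the replicate numbers pair the libraries, and the main fit treated them as unpaired. The 95% intervals given state the precision that 4 libraries a group allow.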
